A study of Mus musculus with 6 samples.

Results

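Macrophage and myeloid genes of the testis were examined as a set of 34 named genes, taken by symbol from the 23253 genes listed in any of the 6 libraries. They were chosen as genes of macrophages and related myeloid cells, with no MHC class II gene and no chemokine receptor. All 34 were listed in all 6 libraries. Poly(A)-selected RNA came from DNase-treated total RNA of whole testis of C57BL/6 mice aged 8 months. In 3 libraries the mice are labelled L3mbtl2 cKO (conditional knockout) and in 3 they are labelled control. The labels name no deleter strain and no cell type of deletion, and no allele or treatment shared with the controls. The design asks how loss of L3mbtl2, a subunit of the Polycomb complex PRC1.6, alters testis RNA. Whether the 3 libraries under a label stem from different mice is not stated in the labels. The p-values therefore rest on a spread that could be technical.

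Testicular macrophages live in the interstitium beside the steroid-producing Leydig cells and on the wall of the seminiferous tubules. They depend on the growth factor CSF1 and its receptor, take up dead cells and complexes through scavenger, Fc and complement pathways, and digest them in lysosomes. In a whole testis they are a minor population beside the germ cells.

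The libraries held 17689205 to 18822050 expected counts, the estimated reads per gene. The targeted gene L3mbtl2 was read at 1030, 1105 and 1031 counts under the label cKO against 658, 705 and 673 under the label control, so it was higher under the label cKO (log2 fold change 0.67, SE 0.10, adjusted p = 0.166 in edgeR's quasi-likelihood test; DESeq2 0.000495; 0.000495 to 0.539 over all alternatives). In FPKM, which corrects for transcript length, L3mbtl2 stood closer, at 16.3 ± 0.663 under the label cKO and 14.2 ± 0.660 under the label control (SD, n = 3 each). Its mean transcript length was 3493 bases under the label cKO and 2717 under the label control. The part of this length in the counts was not tested. File names carry the opposite genotype. Groups follow the sample titles, each library is named by its label, and every direction below would turn if the labels were exchanged. The 3 libraries labelled cKO were alike, with a Pearson r across genes (log2 CPM) of 0.981 to 0.982 for each pair, whereas those labelled control reached 0.937 to 0.972. Under the control label, replicate 2 was close to the libraries labelled cKO (0.980 to 0.982) and replicate 3 far from them (0.923 to 0.927). The members and lists are therefore also given with control replicate 3 left out, and their overall counts with control replicate 2 left out.

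Most macrophage genes were read at lower levels in the libraries labelled cKO, but none passed the test with all 6 libraries. Of 33 members tested, 31 had a negative log2 fold change (labelled cKO minus labelled control), against 50.5% of all 18269 genes tested, and their median was -1.25, against -0.0048 over all genes. A log2 fold change under -1 was found in 21 members and in 9.16% of all genes. At an adjusted p of 0.05 edgeR called 0 members and 0% of all genes in either direction. At an unadjusted p of 0.05 it had 19 members lower (18.8% of all genes) and 1 higher (8.85% of all genes). DESeq2 called 9 of 32 members lower and 0 higher, where it called 7.66% of all genes lower and 0.405% higher, and limma on log2(FPKM + 1) called 0 of 22 (0% of all genes lower and 0.0065% higher). The DESeq2 calls were Csf1, Csf1r, Itgam, Cd68, Cd163, C1qa, C1qc, Fcer1g and Laptm5. Below, a DESeq2 adjusted p is given for these 9 members only. The other members did not pass in DESeq2, among them Folr2 (adjusted p = 0.058), Mpeg1 (0.082) and Lyz2 (0.132). In 10 members every library labelled cKO lay below every library labelled control (19.8% of all genes), and in Aif1 the reverse held (18.0% of all genes). The remaining member, the phosphatidylserine receptor gene Timd4, had 5 to 15 counts in each library and did not pass the filter of the main fit. DESeq2 gave it a log2 fold change of -0.22 (SE 0.83, unadjusted p = 0.793) and no adjusted p. Without the filter, edgeR did not call it.

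The difference was carried by 2 of the 3 libraries labelled control. The TMM-scaled CPM is a count adjusted for sequencing depth and library composition. The TMM factors were 0.96 to 0.97 in the libraries labelled cKO and 1.01 to 1.06 in those labelled control. Relative to the mean of the libraries labelled cKO, the median over members was 2.07-fold in control replicate 1. It was 1.06-fold in replicate 2 and 3.85-fold in replicate 3. In replicate 3, 31 of 33 members lay above all 3 libraries labelled cKO, in replicate 1 29 did, and in replicate 2 11 did. The order replicate 3 over replicate 1 over replicate 2 held in 30 of 33 members, the exceptions being Aif1, Msr1 and Fcgr3. With control replicate 2 left out, edgeR called 25 of 33 members lower and Aif1 higher, against 20.7% of all genes lower and 11.0% higher. With control replicate 3 left out it called 0 members (0% of all genes lower and 0.0108% higher), and their median was -0.64. In whole tissue, fewer macrophages, less of these RNAs per macrophage and a different somatic share of the library cannot be told apart.

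**Figure D1:**
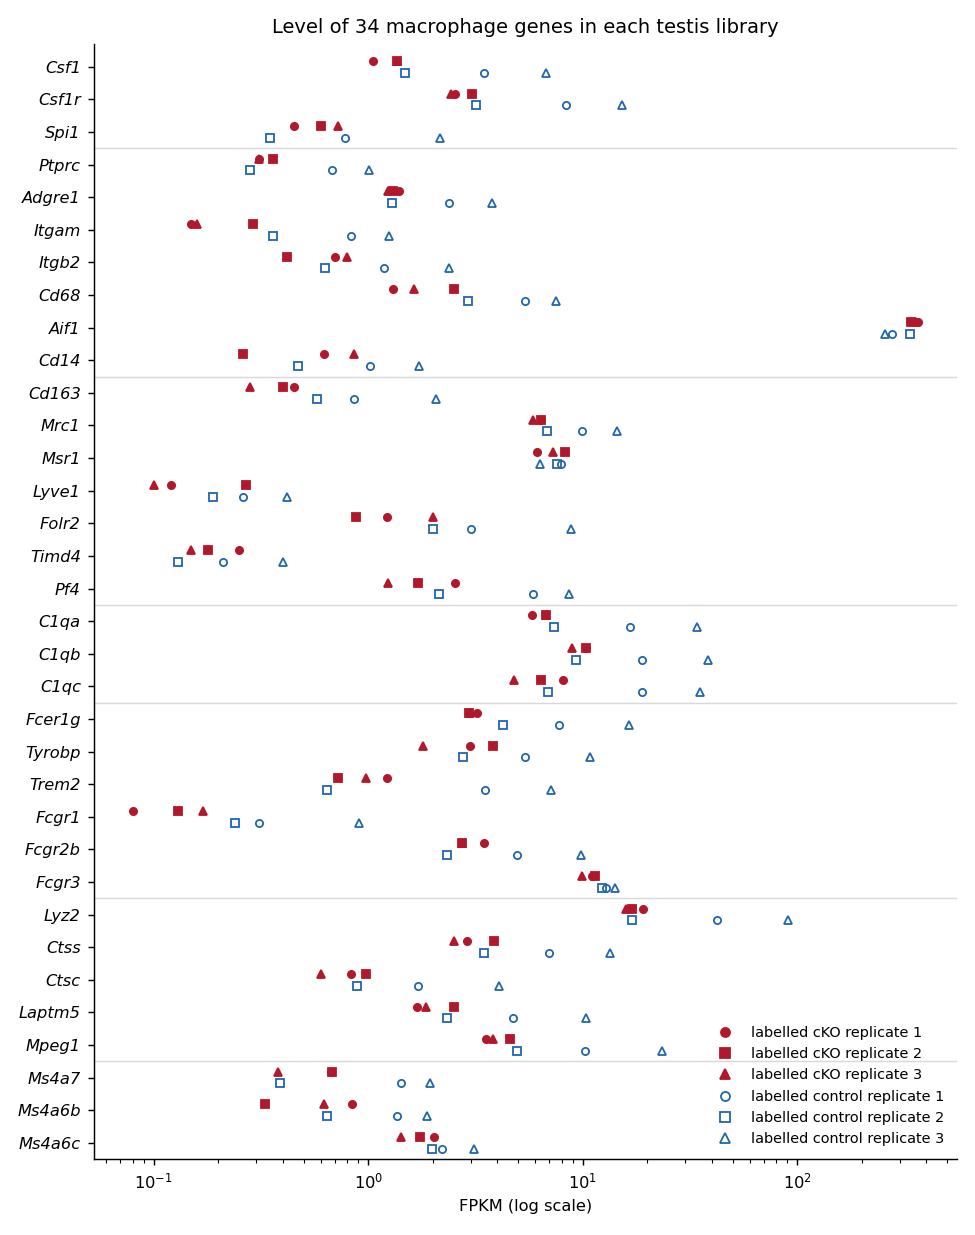
FPKM of each of the 34 macrophage genes (log axis) in the 3 libraries labelled cKO (filled red, upper of each pair of rows) and the 3 labelled control (open blue, lower), with 1 marker shape per replicate. Aif1 stands at 338.25 to 366.08 FPKM in the libraries labelled cKO, and the next most abundant member, Lyz2, at 15.88 to 19.07 FPKM.

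**Figure D2:**
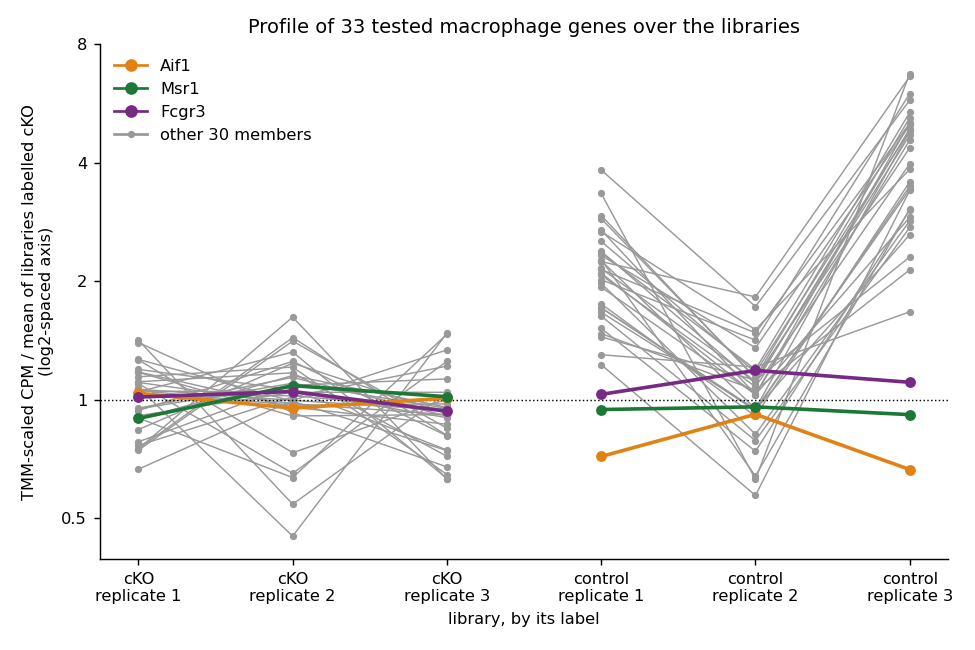
TMM-scaled CPM of the 33 tested members in each library divided by the mean of the 3 libraries labelled cKO (log2-spaced axis). Each line joins 1 gene within a group and carries no order of replicates. The grey genes are highest in the library labelled control replicate 3, while Msr1 and Fcgr3 lie between 0.917 and 1.19 in the libraries labelled control and Aif1 reaches 0.665.

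Csf1r, the receptor tyrosine kinase on which macrophage survival depends, had 2.54, 3.06 and 2.44 FPKM in the libraries labelled cKO, against 8.35, 3.17 and 15.19 in those labelled control. The groups overlap after TMM scaling because of control replicate 2. Its log2 fold change was -1.62 (SE 0.47, edgeR adjusted p = 0.166; DESeq2 0.0131), -1.99 with control replicate 2 left out (adjusted p = 0.00848) and -1.01 with control replicate 3 left out (0.1797). Without control replicate 2, the control library closest to those labelled cKO, edgeR called 20.7% of all genes lower. Csf1, which encodes its ligand and is made by stromal and other cells rather than by macrophages alone, had 1.05, 1.36 and 1.36 FPKM in the libraries labelled cKO, against 3.46, 1.49 and 6.77 in those labelled control, with no overlap. Its log2 fold change was -1.51 (SE 0.47, edgeR adjusted p = 0.166; DESeq2 0.0212). Leaving out control replicate 3 gave -0.89. Ligand and receptor showed close folds in each library labelled control over the mean of those labelled cKO, at 2.52 and 2.88 in replicate 1, 1.17 and 1.14 in replicate 2, and 4.84 and 5.20 in replicate 3. Such folds were not particular to this pair. C1qc had 2.70, 1.03 and 5.05 in these replicates, and the medians over tested members were 2.07, 1.06 and 3.85.

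Spi1 encodes PU.1, the transcription factor that sets up the myeloid programme and binds many macrophage promoters. It was read at 12, 16 and 19 counts in the libraries labelled cKO, against 20, 9 and 55 in those labelled control. The groups overlap, with the lowest and the highest value both under the control label. The log2 fold change was -0.79 (SE 0.62, adjusted p = 0.393), and it turned to 0.15 with control replicate 3 left out. As most members had a like profile over the libraries, their promoters were searched for the PU.1 core letters GAGGAAGT on both strands, from 250 bases before to 50 after each RefSeq start (GRCm38.p6). Promoters were found for 25 of the 34 members, and 4 of these 25 genes (16%) held the letters, against 3.69% of all 27025 genes with a promoter in that table. The 4 are shown with the match in capitals, which lies on the opposite strand in each and so reads ACTTCCTC, followed by Aif1, a member with the opposite direction.
Ctss (chr3:95526536-95526835, + strand): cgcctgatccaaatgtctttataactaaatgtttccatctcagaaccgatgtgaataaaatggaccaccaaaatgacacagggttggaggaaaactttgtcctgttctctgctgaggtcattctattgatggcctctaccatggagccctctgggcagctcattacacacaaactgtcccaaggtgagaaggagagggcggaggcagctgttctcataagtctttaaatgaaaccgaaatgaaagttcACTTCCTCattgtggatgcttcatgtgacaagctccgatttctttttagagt
C1qc (chr4:136892865-136893164, - strand): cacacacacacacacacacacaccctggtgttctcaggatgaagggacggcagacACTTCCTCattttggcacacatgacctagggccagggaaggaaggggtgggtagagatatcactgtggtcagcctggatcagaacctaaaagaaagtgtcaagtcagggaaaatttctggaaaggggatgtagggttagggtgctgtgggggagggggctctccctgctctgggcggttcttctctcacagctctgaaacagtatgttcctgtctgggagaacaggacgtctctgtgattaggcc
Pf4 (chr5:90772185-90772484, + strand): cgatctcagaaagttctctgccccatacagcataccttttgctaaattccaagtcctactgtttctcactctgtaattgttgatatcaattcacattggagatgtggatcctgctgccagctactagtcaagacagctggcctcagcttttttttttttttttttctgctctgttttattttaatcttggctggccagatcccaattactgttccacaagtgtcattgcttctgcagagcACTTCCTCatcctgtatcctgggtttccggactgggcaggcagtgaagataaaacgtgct
Ctsc (chr7:88277835-88278134, + strand): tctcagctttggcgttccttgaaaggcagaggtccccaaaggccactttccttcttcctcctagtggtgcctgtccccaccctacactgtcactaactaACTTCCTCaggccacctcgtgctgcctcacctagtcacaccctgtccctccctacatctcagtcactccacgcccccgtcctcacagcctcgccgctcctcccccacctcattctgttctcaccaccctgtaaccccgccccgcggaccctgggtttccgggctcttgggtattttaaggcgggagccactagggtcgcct
Aif1 (chr17:35176003-35176302, - strand): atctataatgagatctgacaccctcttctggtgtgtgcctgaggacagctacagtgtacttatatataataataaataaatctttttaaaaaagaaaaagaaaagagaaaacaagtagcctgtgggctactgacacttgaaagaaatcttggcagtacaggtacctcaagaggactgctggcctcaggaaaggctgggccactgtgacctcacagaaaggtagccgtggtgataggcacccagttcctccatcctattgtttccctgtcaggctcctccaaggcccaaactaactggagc
The match ends 188 bases before the start in C1qc, 144 in Ctsc and 3 in Pf4, and in Ctss it spans the start. Aif1 does not hold these letters in this window, and neither do most of the negative members with a promoter, so its lack of a match is no contrast. A match is a description of the sequence and says nothing of binding here.

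Among genes that mark leukocytes and macrophages at the surface or in the cytoplasm, 6 of 7 were negative. Adgre1, which encodes F4/80, the standard mouse macrophage marker, had 1.39, 1.31 and 1.24 FPKM in the libraries labelled cKO, against 2.38, 1.29 and 3.77 in those labelled control. The libraries labelled cKO and control replicate 2 were nearly equal, and the other two controls were higher (log2 fold change -0.80, SE 0.36, adjusted p = 0.186). Cd68, a glycoprotein of macrophage endosomes, had 1.31, 2.51 and 1.63 FPKM in the libraries labelled cKO against 5.37, 2.92 and 7.51 in those labelled control. Its groups did not overlap (log2 fold change -1.42, SE 0.41, edgeR adjusted p = 0.166; DESeq2 0.0273). Itgam, the CD11b chain of complement receptor 3, had the most negative value of all members at -1.91 (SE 0.50, edgeR adjusted p = 0.166; DESeq2 0.0193), from 13, 25 and 14 counts in the libraries labelled cKO against 69, 30 and 103 in those labelled control. Its partner chain Itgb2, shared by all leukocytes, overlapped between groups at 37, 22 and 42 counts in the libraries labelled cKO against 60, 32 and 119 in those labelled control (log2 fold change -1.02, SE 0.49, adjusted p = 0.207). The pan-leukocyte phosphatase gene Ptprc (CD45) had 30, 35 and 30 counts in the libraries labelled cKO, against 65, 26 and 93 in those labelled control. That is a log2 fold change of -0.91 (SE 0.44, adjusted p = 0.207), with control replicate 2 below every library labelled cKO. Cd14, the lipopolysaccharide co-receptor, was near the limit of reading, at 8 to 26 counts in the libraries labelled cKO and 14 to 50 in those labelled control (log2 fold change -0.78, SE 0.56, adjusted p = 0.356). When control replicate 3 was left out, Itgam stood at -1.47 and Cd68 at -1.06. Under the same omission Adgre1 stood at -0.39, Ptprc at -0.48, Itgb2 at -0.41 and Cd14 at -0.28.

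Aif1, which encodes the calcium-binding protein IBA1 used to stain macrophages and microglia, was higher under the label cKO. It had 366.08, 338.25 and 357.57 FPKM in the libraries labelled cKO, against 277.12, 337.01 and 255.48 in those labelled control. Every library labelled cKO was above every library labelled control, although control replicate 2 came close. The log2 fold change was 0.38 (SE 0.13, adjusted p = 0.166). It was 0.55 with control replicate 2 left out (adjusted p = 0.0130) and 0.29 with control replicate 3 left out (adjusted p = 0.199). Without control replicate 2, edgeR called 11.0% of all genes higher. Its mean level in the libraries labelled cKO, 354 ± 14.3 FPKM (SD, n = 3), compares with 17.3 ± 1.62 for Lyz2, the next member, and with a sum of 100.3 ± 6.83 FPKM over the other 33 members. Beside it, spermatid genes such as the kinase Tssk2 had 362.14, 355.44 and 343.71 FPKM in the libraries labelled cKO, against 300.25, 318.21 and 251.95 in those labelled control (log2 fold change 0.38, SE 0.12, adjusted p = 0.166). All 15 genes of the spermatid list were positive, with a median of 0.36, which was 0.24 with control replicate 3 left out. The summed level of that list in control replicates 1, 2 and 3 was 0.881, 0.932 and 0.670 of the mean of the libraries labelled cKO. The part of germ cells in the Aif1 level was not tested.

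Receptors for uptake and genes of resident macrophages were mostly negative, at 5 of 6 tested. Cd163, the haemoglobin scavenger receptor of resident macrophages, had 37, 33 and 23 counts in the libraries labelled cKO, against 69, 46 and 161 in those labelled control. The groups did not overlap (log2 fold change -1.52, SE 0.48, edgeR adjusted p = 0.166; DESeq2 0.0401). Mrc1, the mannose receptor CD206, was read more deeply and differed less, at 6.36, 6.36 and 5.89 FPKM in the libraries labelled cKO against 9.88, 6.83 and 14.47 in those labelled control. It too had no overlap (log2 fold change -0.64, SE 0.23, adjusted p = 0.167). Folr2, the folate receptor of resident macrophages, had 24, 17 and 39 counts in the libraries labelled cKO against 56, 38 and 165 in those labelled control (log2 fold change -1.65, SE 0.59, adjusted p = 0.167), and Pf4, a chemokine of platelets and resident macrophages, had 27, 18 and 13 in the libraries labelled cKO against 59, 22 and 87 in those labelled control (log2 fold change -1.49, SE 0.52, adjusted p = 0.166). In both genes the groups overlap at control replicate 2. Lyve1, the hyaluronan receptor of lymphatic vessels and of some perivascular macrophages, had 5 to 13 counts in the libraries labelled cKO and 9 to 19 in those labelled control. Its log2 fold change of -0.69 (SE 0.49, adjusted p = 0.354) did not pass. Timd4 had 10, 7 and 6 counts in the libraries labelled cKO, against 8, 5 and 15 in those labelled control. With control replicate 3 left out, the log2 fold changes were -1.02 for Pf4, -0.85 for Cd163, -0.78 for Folr2, -0.36 for Lyve1 and -0.34 for Mrc1.

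Msr1, the class A scavenger receptor, differed little between any of the libraries. It had 199, 242 and 225 counts in the libraries labelled cKO, against 218, 214 and 210 in those labelled control, and the groups overlap fully. Its log2 fold change was 0.089 (SE 0.15, adjusted p = 0.697) and -0.0099 when scaled by library totals alone, while Mrc1 and Cd163 in the same libraries were negative under every scaling. Leaving out control replicate 3 put Msr1 at 0.071. Of the 7 transcript models counted for Msr1, 5 were assembled by the submitters' pipeline, and Fcgr3 has 3 such models of 4. Only 4 members have any, the others being Ptprc and Mpeg1 with 1 each. The part of these models in the values was not tested.

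The 3 genes of the complement component C1q, the opsonin that macrophages make and that tags dead cells, were among the more abundant members. They lie together on mm10 chromosome 4, C1qb at 136880126 to 136886200, C1qc at 136889801 to 136892936 and C1qa at 136895916 to 136898844. C1qa had 113, 130 and 129 counts in the libraries labelled cKO, against 307, 137 and 624 in those labelled control, with no overlap (log2 fold change -1.48, SE 0.47, edgeR adjusted p = 0.166; DESeq2 0.0219). C1qb had 10.35, 10.39 and 8.91 FPKM in the libraries labelled cKO against 18.84, 9.32 and 38.40 in those labelled control, and overlapped at control replicate 2 (log2 fold change -1.05, SE 0.44, adjusted p = 0.175). C1qc had 8.08, 6.38 and 4.77 in the libraries labelled cKO against 18.82, 6.86 and 35.19 in those labelled control, also with overlap there (log2 fold change -1.55, SE 0.52, edgeR adjusted p = 0.166; DESeq2 0.0239). The chains form 1 protein, and in the library labelled control replicate 3 their folds over the mean of the libraries labelled cKO were 4.88 for C1qa, 3.57 for C1qb and 5.05 for C1qc. With that library left out, the log2 fold changes were -0.80 for C1qa, -0.41 for C1qb and -0.90 for C1qc. Other complement genes, all 12 of 12 tested, were negative with a median of -1.34, which was -0.59 with control replicate 3 left out. Among these 12, edgeR called 0 (6 lower at an unadjusted p of 0.05, against 18.8% of all genes; DESeq2 3 lower, against 7.66%). C2, the protease that follows C1 in the cascade, was at 6.23 ± 0.162 FPKM in the libraries labelled cKO and 24.0 ± 16.9 in those labelled control (SD, n = 3 each; log2 fold change -1.83, SE 0.49, adjusted p = 0.166).

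Of 6 genes of Fc receptors and their signalling adaptors all were negative. Fcer1g, the adaptor that carries the activation motif of Fc receptors, had 38, 35 and 35 counts in the libraries labelled cKO, against 87, 49 and 185 in those labelled control. The libraries labelled cKO were almost alike and the groups did not overlap (log2 fold change -1.53, SE 0.46, edgeR adjusted p = 0.166; DESeq2 0.0315). Tyrobp, the related adaptor DAP12, had 30, 38 and 18 counts in the libraries labelled cKO against 51, 27 and 103 in those labelled control (log2 fold change -1.03, SE 0.51, adjusted p = 0.214). Trem2, the lipid-sensing receptor that signals through DAP12, had 24, 14 and 19 counts in the libraries labelled cKO, against 66, 12 and 132 in those labelled control. It was the widest-ranging member within the control label, 10.7-fold from lowest to highest, and its log2 fold change was -1.83 (SE 0.73, adjusted p = 0.173). Fcgr1, the high-affinity IgG receptor, had the lowest mean FPKM of all members in the libraries labelled cKO, with 4, 6 and 8 counts in the libraries labelled cKO against 14, 11 and 41 in those labelled control. Its groups did not overlap, but counting error is large at this level (log2 fold change -1.81, SE 0.61, adjusted p = 0.166). With control replicate 3 left out, the log2 fold changes were -1.01 for Fcgr1, -0.99 for Trem2, -0.88 for Fcer1g and -0.41 for Tyrobp.

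Fcgr2b and Fcgr3, the inhibitory and an activating low-affinity IgG receptor, share reads. Their expected counts were not whole in 5 of 6 libraries, yet added up to whole numbers within 0.01 in all 6, at 498, 493 and 444 in the libraries labelled cKO and 552, 536 and 699 in those labelled control. The division between them is thus an estimate. Fcgr3 had 408, 423 and 374 counts in the libraries labelled cKO, against 431, 479 and 459 in those labelled control, which overlap after scaling (log2 fold change -0.15, SE 0.12, adjusted p = 0.417). Fcgr2b had 90.0, 70.0 and 69.9 in the libraries labelled cKO against 121, 57.5 and 240 in those labelled control (log2 fold change -0.82, SE 0.47, adjusted p = 0.258). Leaving out control replicate 3 put Fcgr2b at -0.18 and Fcgr3 at -0.15. The sums averaged 478 ± 29.8 in the libraries labelled cKO and 596 ± 89.8 in those labelled control (SD, n = 3 each).

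**Figure D3:**
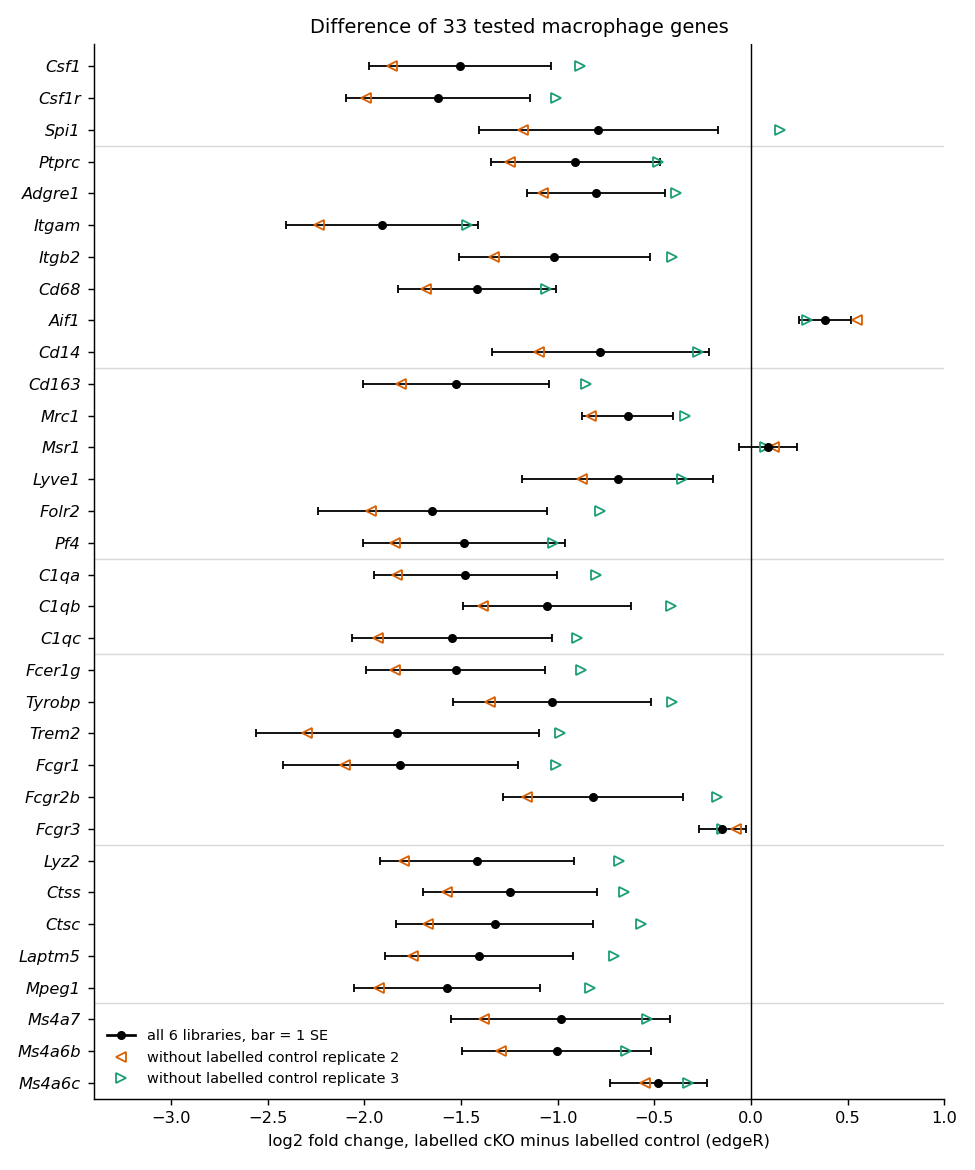
Log2 fold change (labelled cKO minus labelled control, edgeR) of the 33 tested members with all 6 libraries (black, bar 1 SE) and without the library labelled control replicate 2 (orange) or replicate 3 (green). All but Aif1 and Msr1 lie left of 0 with all 6 libraries, and Spi1 crosses it without replicate 3, at 0.15.

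Lysosomal and effector genes were all 5 negative and close to each other, from -1.57 to -1.25. Lyz2, the macrophage lysozyme, had 19.07, 16.96 and 15.88 FPKM in the libraries labelled cKO, against 42.48, 17.02 and 90.46 in those labelled control. Control replicate 2 lay within the libraries labelled cKO (log2 fold change -1.42, SE 0.50, adjusted p = 0.166). Lyz2 shares reads with Lyz1, since their counts add up to whole numbers within 0.01 in all 6 libraries, but Lyz1 took only 19.1 to 24 of them in the libraries labelled cKO and 15.2 to 99.1 in those labelled control. Mpeg1, a pore-forming protein of phagocytes, had 3.53, 4.59 and 3.81 FPKM in the libraries labelled cKO against 10.22, 4.95 and 23.32 in those labelled control, with no overlap (log2 fold change -1.57, SE 0.48, adjusted p = 0.166). Laptm5, a lysosomal membrane protein of blood cells, had 75, 111 and 82 counts in the libraries labelled cKO against 200, 100 and 433 in those labelled control (log2 fold change -1.41, SE 0.49, edgeR adjusted p = 0.166; DESeq2 0.0349). It overlaps at control replicate 2. The proteases Ctss, which trims the MHC class II invariant chain, and Ctsc, which activates granule proteases, had log2 fold changes of -1.25 (SE 0.45, adjusted p = 0.167) and -1.33 (SE 0.51, adjusted p = 0.170). Ctss had 71, 95 and 61 counts in the libraries labelled cKO against 163, 82 and 310 in those labelled control. Once control replicate 3 was left out, these 5 genes ran from -0.83 for Mpeg1 to -0.57 for Ctsc.

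A list of 19 further lysosomal genes, which every cell type uses, gave 18 negative with a median of -1.12, which was -0.53 with control replicate 3 left out. edgeR called 0 (16 lower at an unadjusted p of 0.05, against 18.8% of all genes; DESeq2 10 lower, against 7.66%). In 14 of the 19 the libraries labelled cKO all lay below those labelled control, against 19.8% of all genes. Ctsd, the main aspartic protease, was at 33.5 ± 2.48 FPKM in the libraries labelled cKO and 85.1 ± 47.1 in those labelled control (log2 fold change -1.23, SE 0.36, adjusted p = 0.166; SD, n = 3 each). The list also holds Ctsl, a Sertoli cell product that is on the Sertoli list as well and is named for that reason.

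The Ms4a genes, tetraspanning proteins of myeloid cells clustered on mm10 chromosome 19, were read at low levels. Ms4a7 had 16, 17 and 9 counts in the libraries labelled cKO, against 33, 9 and 44 in those labelled control (log2 fold change -0.98, SE 0.57, adjusted p = 0.263). Ms4a6b had 26, 10 and 19 in the libraries labelled cKO against 40, 19 and 55 in those labelled control, with overlap at control replicate 2 (log2 fold change -1.004, SE 0.49, adjusted p = 0.208). Ms4a6c had 59.9, 49.0 and 43.5 counts in the libraries labelled cKO against 69.0, 62.2 and 87.7 in those labelled control. Its groups did not overlap after scaling, and its log2 fold change was the smallest of the 3 (-0.48, SE 0.25, adjusted p = 0.231). Its counts were not whole in any library, and no single partner gene made them whole. With control replicate 3 left out, the log2 fold changes were -0.64 for Ms4a6b, -0.54 for Ms4a7 and -0.33 for Ms4a6c.

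Other myeloid pathways were described from lists. Their counts of lower genes stand beside 18.8% of all genes at an unadjusted p of 0.05 and 7.66% in DESeq2. Counts of higher genes stand beside 8.85% of all genes at an unadjusted p of 0.05. Of 14 regulators and growth factor receptors of myeloid cells, 11 were negative with a median of -0.94, and edgeR called 0 (7 lower and 1 higher at an unadjusted p of 0.05; DESeq2 3 lower). Cebpb, a transcription factor of inflammatory macrophages that other cells also express, was at 1.10 ± 0.141 FPKM in the libraries labelled cKO and 3.48 ± 2.07 in those labelled control (log2 fold change -1.54, SE 0.50, adjusted p = 0.166). Of 15 tested genes of phagocytosis and activation-motif signalling, 13 were negative with a median of -0.96 (edgeR 0, 9 lower at an unadjusted p of 0.05; DESeq2 6 lower). Axl, a receptor for dying cells found on Sertoli cells as well as macrophages, had 9.39, 9.22 and 9.19 FPKM in the libraries labelled cKO against 19.71, 12.43 and 31.46 in those labelled control, with no overlap (log2 fold change -1.08, SE 0.28, adjusted p = 0.166). The 6 subunits of the phagocyte NADPH oxidase and its regulators were all negative, with a median of -1.05 (edgeR 0, 1 lower at an unadjusted p of 0.05; DESeq2 0). Of 10 tested Toll-like receptor and cytokine genes 9 were negative with a median of -0.82 (edgeR 0, 2 lower at an unadjusted p of 0.05; DESeq2 0), and 8 of the 16 on that list stayed under 1 FPKM in every library. MHC class II genes had a median of -0.40 with 6 of 7 negative (edgeR 0, 0 at an unadjusted p of 0.05; DESeq2 0). When control replicate 3 was left out, the MHC class II median turned to 0.068 and that of the Toll-like receptor and cytokine genes was -0.14. Under the same omission the medians were -0.44 for the regulators, -0.52 for phagocytosis and -0.47 for the NADPH oxidase.

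T-cell, B-cell and neutrophil genes were read at low summed levels, and edgeR called 0 of them. At an unadjusted p of 0.05, 1 was higher, in the neutrophil list, against 8.85% of all genes, and DESeq2 called 0. Of the 8 tested T-cell genes 3 were negative, with a median of 0.11, and 0.048 over 9 tested genes with control replicate 3 left out. Both the B-cell and the neutrophil list had 1 of 2 tested genes negative, with medians of 0.024 and -0.10, which turned to -0.075 and 0.20 with control replicate 3 left out. The summed level of 11 T-cell genes was 11.6, 10.85 and 12.2 FPKM in the libraries labelled cKO, against 9.70, 14.0 and 10.6 in those labelled control. That of 7 B-cell genes was 7.20 to 7.42 FPKM in the libraries labelled cKO and 6.35 to 7.75 in those labelled control, most of it from Pax5, as the other 6 stayed under 1 FPKM in every library. Neutrophil genes summed to 1.89 to 2.39 FPKM in the libraries labelled cKO against 1.56 to 1.93 in the libraries labelled control, with S100a9 and Ngp listed in no library. In the mast cell list Fcer1a and Ms4a2 were listed in no library, and only Hdc, the histidine decarboxylase, passed the filter on low counts. Hdc was at 9.19, 9.74 and 10.14 FPKM in the libraries labelled cKO, against 12.69, 9.83 and 17.07 in those labelled control, in the order of the macrophage genes (log2 fold change -0.32, SE 0.18, adjusted p = 0.259). Genes of the monocyte list had a median log2 fold change of 0.24 with 3 of 8 tested negative (edgeR 0, 2 lower and 1 higher at an unadjusted p of 0.05; DESeq2 1 lower). Of all genes, 18.8% were lower and 8.85% higher at that unadjusted p, and DESeq2 called 7.66% lower. The monocyte median was 0.095 with control replicate 3 left out. Nr4a1, a nuclear receptor of patrolling monocytes that many cells express, had 0.48 (SE 0.18, adjusted p = 0.167), and the kinase gene Lyn, also on the phagocytosis list, had -1.64 (SE 0.57, adjusted p = 0.166). The 33 members without Aif1, a subset chosen after its values were seen, summed to 103, 105 and 92.5 FPKM in the libraries labelled cKO, against 212, 108 and 398 in those labelled control. All 34 members summed to 469, 443 and 450 FPKM in the libraries labelled cKO, against 489, 445 and 654 in those labelled control. Among all 6 libraries, the T-cell, B-cell and neutrophil sums were not highest in control replicate 3, whereas the monocyte and mast cell sums were. These sums rest on few genes, as 7 of 11 T-cell and 7 of 8 listed neutrophil genes stayed under 1 FPKM in every library. Mpo averaged 1.63 FPKM in the libraries labelled cKO, where the neutrophil sum averaged 2.06. Cd4 and Csf3r were highest in control replicate 3, at 0.65 and 0.55 FPKM. Cd3d and Mpo were lowest there, at 1.52 and 1.12 FPKM. The monocyte genes summed to 40.45 to 43.49 FPKM in the libraries labelled cKO, against 42.82, 37.53 and 51.39 in those labelled control. The mast cell genes summed to 9.71 to 10.48 FPKM in the libraries labelled cKO, against 12.93, 9.91 and 17.49 in those labelled control. The part of other blood cells in the macrophage values was not tested.

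Markers of non-immune somatic cells moved with the macrophage genes from library to library. The 13 Leydig genes summed to 1508, 1661 and 1524 FPKM in the libraries labelled cKO, against 4282, 2121 and 10342 in those labelled control, which is 2.74, 1.36 and 6.61 times the mean of the libraries labelled cKO for control replicates 1, 2 and 3. The 20 Sertoli genes stood at 1.80, 1.27 and 3.17 times that mean, the 12 endothelial genes at 1.48, 1.05 and 2.06 times and the macrophage members without Aif1 at 2.12, 1.08 and 3.97 times. With Aif1 included, the sum over all 34 members stood at only 1.08, 0.98 and 1.44 times. All 12 tested Leydig genes were negative with a median of -1.56, and all 20 Sertoli genes with a median of -0.96 (edgeR 0 of each, 11 Leydig and 20 Sertoli genes lower at an unadjusted p of 0.05; DESeq2 5 and 17 lower). Of 12 endothelial genes 11 were negative with a median of -0.64 (edgeR 0, 3 lower at an unadjusted p of 0.05; DESeq2 1 lower). Of all genes, 18.8% were lower at an unadjusted p of 0.05 and 7.66% were called lower in DESeq2. The endothelial counts lie near these shares. With control replicate 3 left out, the medians were -0.96 for Leydig, -0.56 for Sertoli and -0.31 for endothelial genes. In a fit with the mean log2 CPM of the Leydig and Sertoli genes as a covariate, the median of the macrophage members turned to 0.20, 6 of 33 members were negative and 0 passed. That score did not overlap between the groups, at -0.58 to -0.45 in the libraries labelled cKO and -0.18 to 1.31 in those labelled control, so the fit also takes out the difference between the groups. The somatic share of a library and its label cannot be told apart here.

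**Figure D4:**
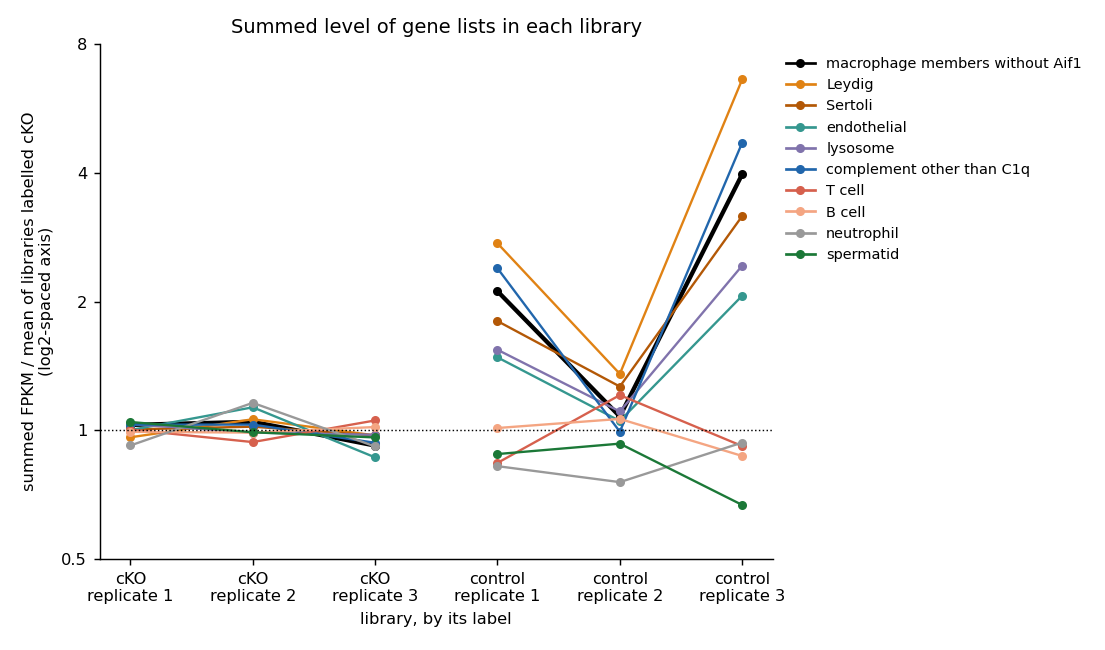
Summed FPKM of each gene list in every library, divided by its mean over the 3 libraries labelled cKO (log2-spaced axis). Lines join the libraries of a group and carry no order. In the library labelled control replicate 3 the Leydig list is at 6.61, the macrophage members without Aif1 at 3.97 and the T-cell list at 0.919. All 34 macrophage members together, not drawn, are at 1.44 there. Of the 11 T-cell genes, 7 stayed under 1 FPKM in every library.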

How the data were processed

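Tables of 6 libraries were used. The deposited tables hold, per the file headers, an expected count, an FPKM value and a transcript length for each gene, and list genes with an FPKM of at least 0.01; genes absent from a library's table were taken as 0. RSEM, HISAT2 2.0.4, Bowtie2 2.2.5, bcl2fastq 2.16, DESeq2 and mm10 are named in the submitters' processing notes, with no role. The deposited expected counts are not normalized. The deposited FPKM corrects each count for transcript length and library depth. Whether counting used strand is not stated in these sources.

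Expected counts were rounded and tested over all genes with edgeR 4.0.16 in R 4.3.3 (filterByExpr, minimum count 10 and total 15; TMM; quasi-likelihood test; Benjamini-Hochberg adjustment at 0.05). SE is the log2 fold change over the root of F. Counting error is small beside the common variation of 22.8%, which could be technical, only in genes of many counts. It is not small in members such as Ptprc, at 30 to 35 counts in the libraries labelled cKO, and Fcer1g, at 35 to 38. With 3 against 3 an exact permutation test cannot give a two-sided p below 0.1. Positions come from RefSeq, GRCm38.p6. The procedure was tested on simulated counts that varied less than these data and held no deviating library. That check therefore does not show the power of the test here.

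Alternatives were DESeq2 1.42.0, its size factors in edgeR, library totals, limma 3.58.1 with a pseudocount of 1 or 0.1 on the log2 FPKM scale (genes at 1 FPKM or more in at least 3 libraries), no filter, 5 CPM in at least 3 libraries, each library left out, the replicate number as a block, and a Leydig and Sertoli covariate. Members and lists were chosen with earlier results of these data known. All members were named, and of each other list at most its 2 genes of smallest p. Ctsl and list genes absent from every library were named besides, after their values were seen.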

Additional observations from a re-analysis of the deposited data

How the results depend on the processing

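The median log2 fold change of the macrophage members, -1.25, ran from -1.57 to -0.64 when each library was left out and from -1.42 to -0.99 over the other alternatives, except in the fit with the Leydig and Sertoli score as a covariate, where it turned to 0.20. That score does not overlap between the groups. In that fit 25 members turned positive: Csf1 0.10, Csf1r 0.10, Spi1 1.35, Ptprc 0.43, Adgre1 0.34, Itgb2 0.48, Cd14 0.59, Mrc1 0.14, Lyve1 0.092, Folr2 0.12, Pf4 0.016, C1qa 0.25, C1qb 0.55, C1qc 0.30, Fcer1g 0.0086, Tyrobp 0.51, Trem2 0.80, Fcgr2b 0.84, Lyz2 0.50, Ctss 0.25, Ctsc 0.47, Laptm5 0.27, Mpeg1 0.20, Ms4a7 0.62, Ms4a6b 0.14. None passed there. Spi1 ran from -1.18 to 0.15 when each library was left out, turning without control replicate 3. Msr1 turned to -0.0099 by library totals, which move the median of all genes to -0.10, and to -0.0083 and -0.0098 on log2(FPKM + 1) and log2(FPKM + 0.1). The number of genes called lower, 0 with all libraries, was 1363 in DESeq2 and 0 to 3851 when each library was left out, and the number called higher was 72 in DESeq2, 1 in each limma fit and 0 to 2049 when each library was left out. Members called numbered 9 in DESeq2 and 0 to 26 when each library was left out, 26 without the library labelled control replicate 2 and 0 without any other. L3mbtl2 passed in DESeq2 (0.69, adjusted p = 0.000495) and without the library labelled control replicate 2 (0.73), and its values were 0.64 to 0.73 when each library was left out, and 0.19 and 0.20 in the limma fits to FPKM. The causes of these changes were not tested. The labels state no pairing by replicate number. Deviations of same-numbered libraries from their group means correlated at 0.043, -0.0067 and -0.039, a measure that cannot exclude a pairing. With the replicate number as a block the members' median was -1.08 and 0 members were called. The strict filter left 14 members and limma 22, so low-count members such as Fcgr1, Lyve1 and Timd4 were not read there.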
